A study of Mus musculus with 4 samples.

Results

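The chemokine ligand genes Ccl1, Ccl3, Ccl4, Ccl5, Xcl1 and Cxcl10, which T cells transcribe, were followed through single T cells of the brain and the spleen of mice with experimental autoimmune encephalomyelitis. They are 6 of the 41 chemokine ligand genes and of the 33696 genes in the feature tables, and they were chosen with their brain and spleen levels known. The difference between the tissues is therefore given as a description. The cells came from wild-type C57BL/6 mice in which the disease had been induced, at day 60 after immunization, and were sorted as CD4+ CD44+ GITR-, which is an antigen-experienced conventional CD4 T cell gate. Both tissues carry this genotype, treatment and time, and no untreated or healthy mice are among the samples used here. Each tissue gave 1 library of 5′ RNA tags and 1 matched library of T cell receptor (TCR) sequences. The number of mice pooled was not given in the sources used here. With 1 RNA library per tissue there is no replicate, so no test was made, and every interval below is an exact 95% interval that covers counting error only.

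Chemokines are small secreted proteins that bind receptors on other cells and draw them along a gradient. Ccl3, Ccl4 and Ccl5 are typical products of cytotoxic and type 1 T cells. Ccl1 is the ligand of Ccr8, Xcl1 attracts cross-presenting dendritic cells that carry Xcr1, and Cxcl10 is an interferon-inducible ligand of Cxcr3. In the inflamed central nervous system such ligands are known for recruiting T cells and monocytes.

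The brain library kept 3915 cells of 4277 deposited barcodes and the spleen library 7990 of 8707, with medians of 9838 and 7188.5 UMIs (unique molecular identifiers, each standing for 1 captured transcript). Barcodes with surplus receptor chains, and B-like or myeloid-like barcodes, were left out. A paired receptor was found for 79.2% of brain and 84.3% of spleen cells. The libraries shared 31 barcode sequences, and 0 of these carried the same clonotype in both. Of the defining markers of myeloid cells and microglia, 1 of 6 in each list reached 10 CPM (UMIs scaled to an equal total per library) in either tissue and neither was called different. Lyz2 stood at 0.393 CPM in brain and 0.132 in spleen, and Csf1r at 0.147 and 0.0166. The microglia genes Tmem119, Trem2 and C1qb had 3, 8 and 31 UMIs in brain and 0 in spleen. Barcodes with at least 4 of the 12 myeloid and microglia markers had been left out, so these low levels were partly fixed by that rule. The natural killer cell genes Ncr1 and Klra8 had no UMI in the brain cells. UMIs of Cd8a or Cd8b1 were found in 259 of the brain cells despite the CD4 gate.

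All 6 genes had a higher summed level in brain than in spleen, but by very different amounts. Ccl1, Ccl3 and Ccl4 were at 1.36 CPM or less in spleen, Cxcl10 and Xcl1 were intermediate, and Ccl5 was the highest of the 6 in both. The 5′ tags count 1 end of a transcript, so the levels were not scaled by length. Ccl1 had 3759 UMIs in brain and 39 in spleen, or 92.3 and 0.646 CPM. Ccl3 had 655 and 8 UMIs, or 16.1 and 0.132 CPM. Ccl4 had 2787 and 82 UMIs, or 68.4 and 1.36 CPM. For these 3 genes the spleen library held few transcripts at all. Ccl5 had 25199 UMIs in brain and 28680 in spleen, or 619 and 475 CPM. Xcl1 had 3921 and 2198 UMIs, or 96.3 and 36.4 CPM. Cxcl10 had 2109 and 800 UMIs, or 51.8 and 13.2 CPM. In brain the order was Ccl5, Xcl1, Ccl1, Ccl4, Cxcl10 and Ccl3, and only the neighbours Xcl1 and Ccl1 had overlapping counting intervals. The place of Ccl1 in this order rested on 1 cell, as given below. In spleen Ccl5 was again first and Xcl1 second, followed by Cxcl10, Ccl4, Ccl1 and Ccl3, with no overlap between neighbours.

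The brain to spleen ratio was 143 (104 to 201) for Ccl1, 121 (61.2 to 282) for Ccl3 and 50.4 (40.5 to 63.6) for Ccl4. It was 3.91 (3.60 to 4.24) for Cxcl10, 2.64 (2.51 to 2.79) for Xcl1 and 1.30 (1.28 to 1.32) for Ccl5. A gene was called higher where the ratio was at least 1.5, its interval excluded 1 and the higher tissue had at least 10 CPM. By that rule 5 of the 6 genes were called higher in brain and 0 in spleen, with Ccl5 below the ratio. Over all 8639 genes measured, 9.82% were called higher in brain and 8.73% higher in spleen. The members were chosen on this contrast, so their count says nothing further. The ratio of the rarest genes moved with the cells counted. The Ccl1 ratio was 73.3 without its leading clonotype in each tissue, 365 with a stricter filter on genes and mitochondrial UMIs, and 29.9 as a mean of per-cell CPM. The Ccl3 ratio fell to 39.8 over all deposited barcodes, and was 74.9 without its leading cell in each tissue. The Cxcl10 ratio was 27.0 without the top 1% of cells in each tissue, and Ccl5 reached 1.55 there, which passed the ratio of 1.5.

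**Figure D1:**
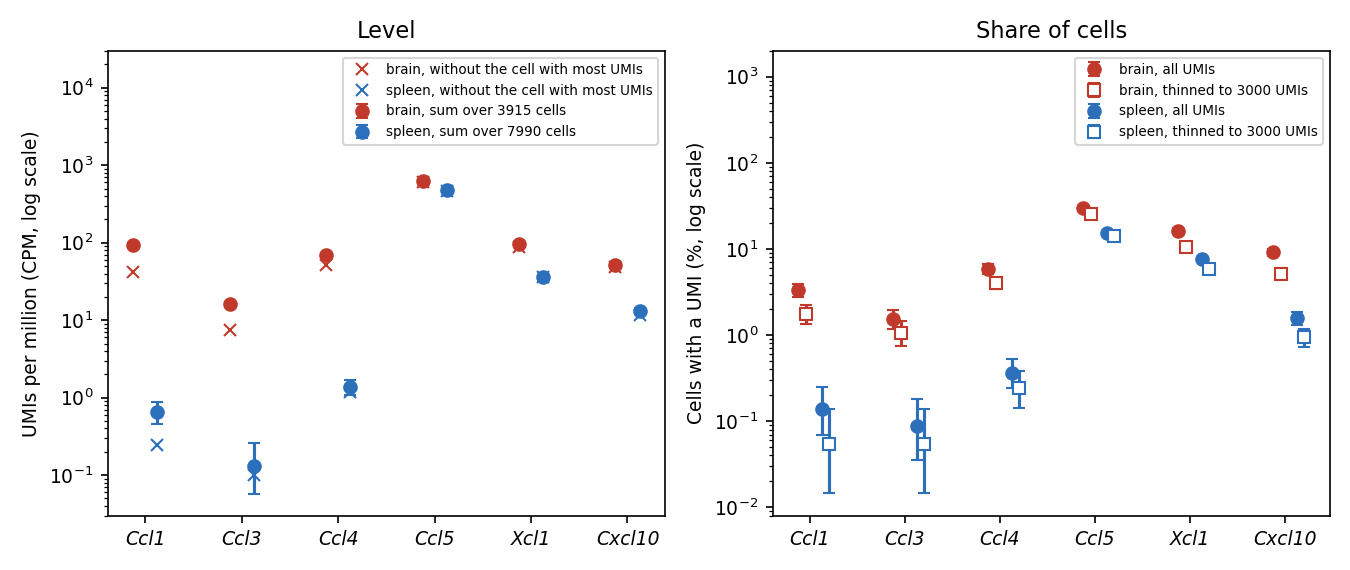
Left: CPM (log axis) of each gene summed over the brain and spleen cells, with exact Poisson 95% intervals; crosses give the level without the cell that held most UMIs. Right: share of cells with a UMI (log axis) with exact binomial 95% intervals, at deposited depth (circles) and after thinning each cell to 3000 UMIs (squares). Brain lies above spleen for all 6 genes, most for Ccl1, Ccl3 and Ccl4.

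In brain the order by share of cells was not that by level: Ccl1 was the third by CPM and the fifth by share, and Cxcl10 the reverse. This contrast rested on 1 cell. Without the leading cell of each gene, the brain levels were 51.0 CPM for Ccl4, 49.1 for Cxcl10 and 42.5 for Ccl1. Ccl1 was then the fifth by level as well. In brain, Ccl5 was detected in 1179 cells (30.1%), Xcl1 in 635 (16.2%), Cxcl10 in 358 (9.14%), Ccl4 in 229 (5.85%), Ccl1 in 130 (3.32%) and Ccl3 in 60 (1.53%). In spleen the shares were 15.3%, 7.55%, 1.58%, 0.363%, 0.138% and 0.0876% in the same order. At an equal 3000 UMIs per cell, which left 3689 brain and 7455 spleen cells, the brain shares were 25.6%, 10.6%, 5.18%, 4.04%, 1.73% and 1.06% in that order, and the spleen shares 14.3%, 5.92%, 0.939%, 0.241%, 0.0537% and 0.0537%. The brain and spleen intervals were apart for all 6 genes at both depths. As a measure of free RNA, naive or central memory-like cells were taken, which should not transcribe these genes. The 333 such brain cells, with a median of 10069 UMIs, held Ccl5 in 2.10%, Cxcl10 in 0.601% and Ccl1 in 0.300% of cells. They held Ccl3, Ccl4 and Xcl1 in 0 of 333 cells, which allows a share of up to 0.901%. The 1851 such spleen cells, with a median of 7533 UMIs, held Ccl5 in 0.324%, Cxcl10 in 0.108% and Xcl1 in 0.0540%, and the other 3 genes in 0, which allows up to 0.162%. The spleen shares of Ccl1 and Ccl3 over all cells lay below that limit, so the shares alone could not be told from background at this depth. Their UMIs were not spread evenly: 1 spleen cell held 24 of the 39 Ccl1 UMIs. All 7 Ccl3-positive spleen cells also held Ccl5. The brain shares of all 6 genes lay above those of the naive-like cells, and any member was found in 1656 brain cells (42.3%) and 1349 spleen cells (16.9%).

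Signs of recent activation and of handling also differed between the libraries. Of 9 measured T cell activation genes, 7 were called higher in brain and 0 in spleen, with a median log2 ratio of 2.33, against -0.09 over all genes. Of 14 measured genes of the dissociation stress list, 11 were higher in brain and 0 in spleen, with a median of 2.14. Within the brain library, cells with and without a UMI of Ccl1 had 2818 and 2169 CPM of the activation list in sum, a ratio of 1.30 (1.26 to 1.34). The values were 2338 and 2187 for Ccl4, and 2935 and 2100 for Cxcl10. Cells with and without Ccl1 had 14559 and 14452 CPM of the stress list in sum, and for Ccl4 the values were 14611 and 14446. For Cxcl10 they were 16853 and 14140. In spleen, a cluster of 77 cells led by the immediate early genes Egr1 and Egr3 held Ccl1, Ccl3, Ccl4 and Xcl1 in 0 cells, which allows a share of up to 3.90%. The shares of Ccl1, Ccl3 and Ccl4 over all spleen cells (0.138%, 0.0876% and 0.363%) lay below that limit. So did the Xcl1 share of 1.07% in spleen cells with a paired receptor other than TRAV11-TRAJ18 of NKT cells. This cluster held 0 cells with that NKT receptor, so its counts of 0 do not tell it from other spleen cells. The part of activation and handling in the tissue difference was not tested.

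The genes differed in how evenly their transcripts were spread over cells. For Ccl1 and Ccl3, a single brain cell carried more UMIs than all other brain cells together. The leading brain cell held 2030 of the 3759 Ccl1 UMIs (54.0%) and 352 of the 655 Ccl3 UMIs (53.7%). The leading cell held 25.5% of Ccl4, 7.55% of Xcl1, 5.17% of Cxcl10 and 1.202% of Ccl5 UMIs. To reach the midpoint of each gene's brain UMIs took 1 cell for Ccl1 and for Ccl3, 10 for Ccl4, 27 for Cxcl10, 50 for Xcl1 and 120 for Ccl5. The top 1% of brain cells, 40 cells, held 96.9% of Ccl1, 96.9% of Ccl3, 77.4% of Ccl4, 60.3% of Cxcl10, 46.4% of Xcl1 and 26.0% of Ccl5 UMIs. At the other end, 52.3% of Ccl1-positive and 60.0% of Ccl3-positive brain cells had exactly 1 UMI, against 12.7% of Ccl5-positive cells, whose median was 9 UMIs. Without the leading cell the brain level was 42.5 CPM for Ccl1, 7.44 for Ccl3 and 51.0 for Ccl4. In spleen, 24 of the 39 Ccl1 UMIs sat in 1 cell of 1702 UMIs.

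**Figure D2:**
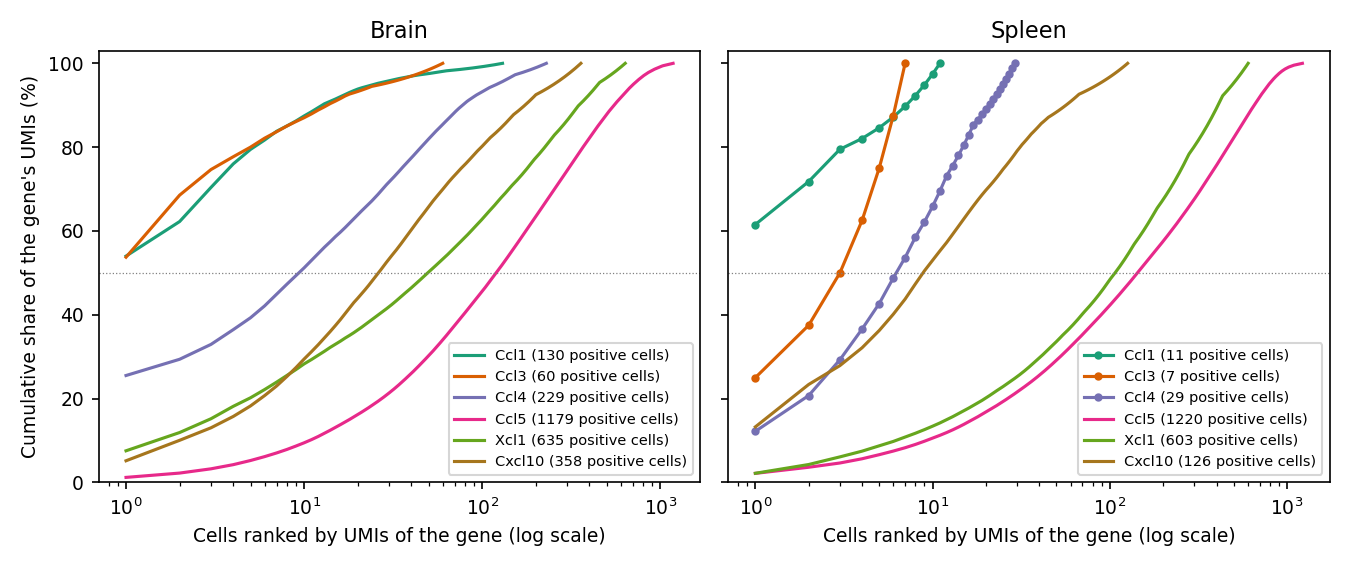
Cumulative share of each gene's UMIs (vertical axis) over cells ranked by their UMIs of that gene (log axis), in brain (left) and spleen (right); the dotted line marks 50%. In brain the Ccl1 and Ccl3 curves start above the line with the first cell, and Ccl5 needs 120 cells to reach it.

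The leading brain cells of Ccl1, Ccl3, Ccl4 and Ccl5 carried Cd3 and Cd4 transcripts. The leading Ccl1 cell had 17596 UMIs, of which Ccl1 made up 11.5%, with 31 UMIs of Cd3d and 13 of Cd4. It also held 171 Xcl1, 8 Ifng, 10 Tnf and 34 Nr4a1 UMIs and 0 Il17a, although its cluster was Th17-like. The second Ccl1 cell held 310 Ccl1, 296 Xcl1 and 16 Csf2 UMIs, and the third 306 Ccl1 and 24 Il17a. The third held 23 Xcl1 UMIs, so all 3 were also Xcl1 cells, and the second was the leading cell of Xcl1. A single cell of 30450 UMIs led Ccl3, Ccl4 and Ccl5 at once, with 352, 711 and 303 UMIs. It carried 58 Ifng, 21 Cd3e and 10 Cd4 UMIs but no receptor chain. The spleen cell with the most Ccl3, 2 UMIs, had 0 UMIs of Cd3d, Cd3e and Trac, 24 of Tyrobp and 4 of Ncr1, and was 1 of 2 spleen cells of that kind.

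Clusters were made in each library without any chemokine ligand gene, so the members did not define them. In brain, 4 of the 6 genes had most of their UMIs in a single cluster. Ccl3, Ccl4 and Ccl5 were highest in killer-receptor and cytotoxic clusters. An unnamed cluster of 314 cells, led by Rgs16, Klri2, Klrc1 and Klrd1, held 84.7% of Ccl3 and 59.3% of Ccl4 UMIs, and its levels were 146 and 435 CPM. Without the leading cell these levels were 53.8 and 250. Ccl4 was detected in 28.3% of its cells, Ccl3 in 7.64% and Ccl1 in 20.7%. A cytotoxic-like cluster of 94 cells led by Eomes, Gzmk and Cd8a had the highest Ccl4 level, 635 CPM, with Ccl4 in 48.9%, Ccl3 in 12.8% and Ccl5 in 96.8% of cells. A second cytotoxic-like cluster of 42 cells, marked by S1pr5, Gzma and Cx3cr1, had the highest Ccl5 level at 9317 CPM, with Ccl4 in 19.0% of cells. Most Ccl5 UMIs lay elsewhere: the Th1-like cluster of 708 cells held 31.1% of them, with Ccl5 in 71.9% of cells at 1094 CPM.

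Ccl1, the Ccr8 ligand, had its highest share of cells and its highest level in different clusters. The share of positive cells was highest in the Rgs16 and Klrc1 cluster, where 65 of the 130 positive brain cells lay. The level was highest in a Th17-like cluster of 154 cells marked by Nrgn, Igfbp7 and Il17a, at 1404 CPM and 70.6% of UMIs, from 12 positive cells. This order rested on 1 cell: without the leading cell the level there was 333 CPM, under the 356 CPM of an unnamed cluster of 297 cells, which was itself at 116 CPM without its own leading cell. Xcl1 was highest in the NKT-like cluster of 140 cells, detected in 88.6% of cells at 434 CPM, and its largest share of UMIs, 32.2%, was in the Th1-like cluster. A Th17-like cluster of 257 cells with Ccr6, Slc22a4 and Il22 had 0 cells with Ccl3, Ccl4 or Xcl1, which allows up to 1.17% each at its median of 11838 UMIs, and Ccl5 in 3.89%. Cxcl10 was found in 11.3% of those same cells.

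Cxcl10 was highest in the interferon response-like cluster of 253 brain cells, with 390 CPM, 32.0% positive cells and 50.4% of the gene's UMIs. In spleen its levels were highest in the follicular helper-like cluster (94.7 CPM, 9.63% of 405 cells) and the interferon response-like cluster (79.2 CPM, 5.28% of 246 cells). Spleen Ccl5 and Xcl1 were led by other cells. An unnamed cluster of 679 spleen cells led by Klrb1c and Cd160, of which 582 carried the invariant receptor of NKT cells, had Xcl1 in 82.0% and Ccl5 in 98.4% of cells and held 91.2% of all Xcl1 UMIs. A cytotoxic-like spleen cluster of 91 cells had the highest Ccl5 level, 12450 CPM.

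**Figure D3:**
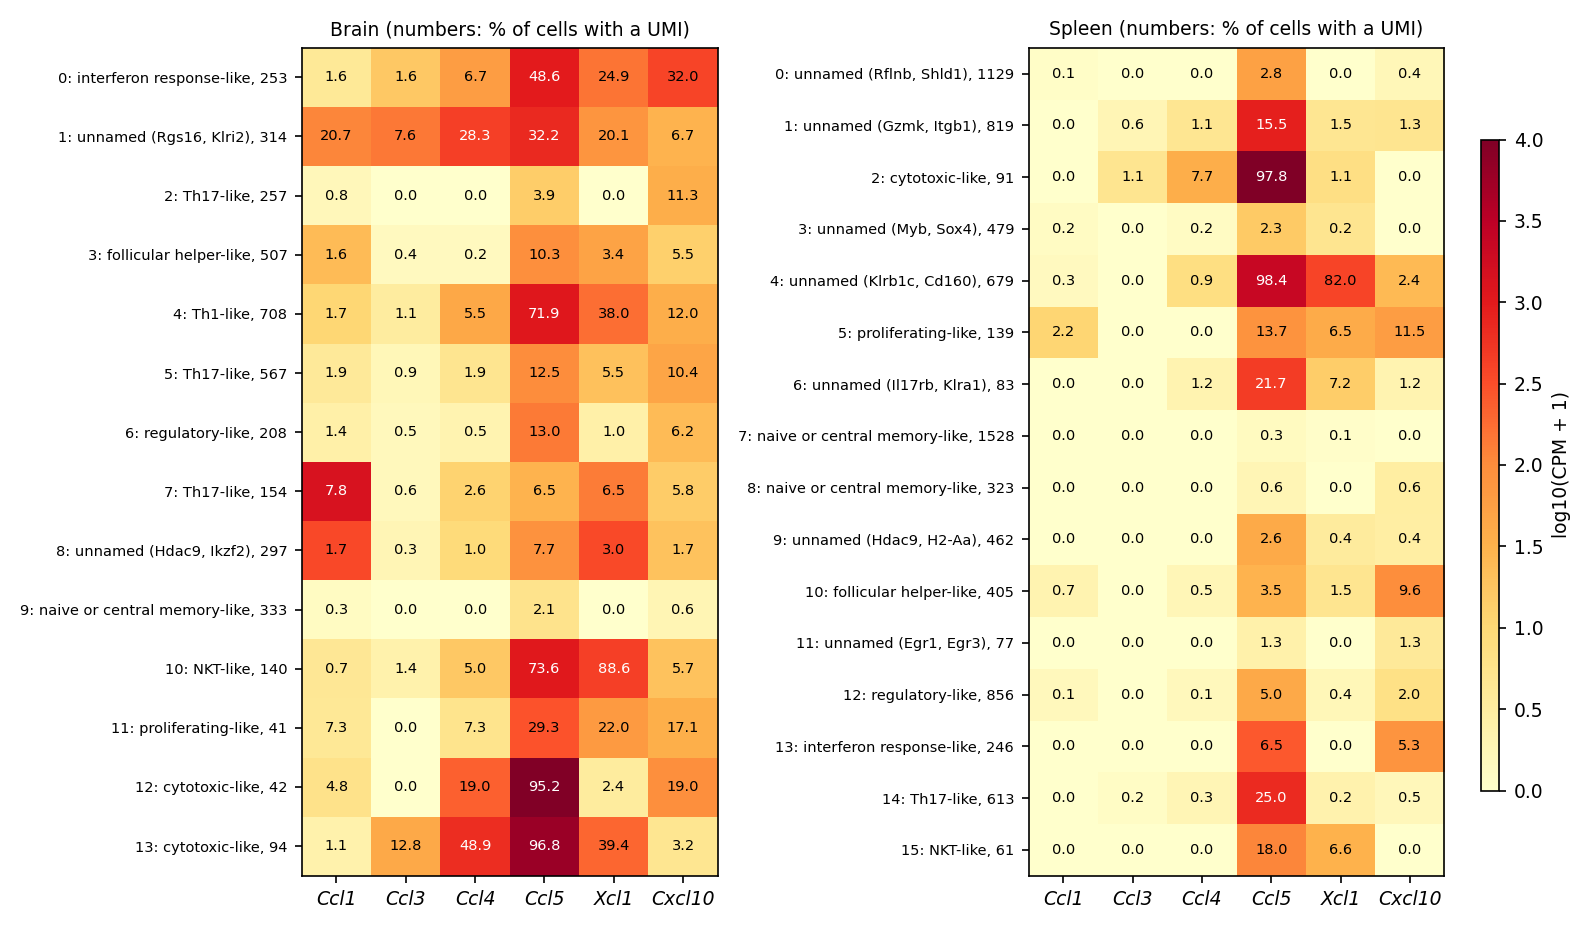
Clusters of brain (left) and spleen (right) cells, with the number of cells after each name; numbers in the cells of the map are the percent of cells with a UMI and colour is log10(CPM + 1). The highest brain shares are those of Ccl1 in cluster 1 (20.7%), Ccl3 and Ccl4 in cluster 13 (12.8% and 48.9%), Xcl1 in the NKT-like cluster (88.6%) and Cxcl10 in the interferon response-like cluster (32.0%).

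The regulatory DNA of Cxcl10 is shown beside this because its transcript followed the interferon genes across cells. The 250 bases upstream of its start in RefSeq (GRCm38.p6, chr5:92348890-92349139, minus strand) held 1 match to the core of the interferon-stimulated response element (GAAA, any 2 bases, GAAA) at 213 to 204 bases upstream. The window also held 3 matches to the kappaB consensus, a pair of them overlapping at 104 to 94 bases, and 1 match to the AP-1 motif TGANTCA at 74 to 68 bases. Among 32851 windows of the same length, searched on both strands, 2.98% held the response element core, 7.25% the kappaB consensus and 6.75% the AP-1 motif. The Ccl1 window (chr11:82179813-82180062, minus strand) held 2 overlapping kappaB matches at 196 to 186 bases and none of the other motifs. The windows of Ccl3 and Xcl1 held none of the 3 motifs, which says only that these letters are not in 250 bases. Windows were found for 4 of the 6 genes, not for Ccl4 and Ccl5. A match is a description of letters and not a measured binding site. Capitals mark the matches in the sequences of Cxcl10 and Ccl1, written 5′ to 3′:
Cxcl10 upstream: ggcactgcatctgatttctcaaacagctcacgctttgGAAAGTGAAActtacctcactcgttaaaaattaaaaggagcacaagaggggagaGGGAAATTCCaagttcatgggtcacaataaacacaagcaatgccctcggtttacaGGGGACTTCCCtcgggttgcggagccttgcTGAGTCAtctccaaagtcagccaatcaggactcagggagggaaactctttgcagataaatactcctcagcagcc
Ccl1 upstream: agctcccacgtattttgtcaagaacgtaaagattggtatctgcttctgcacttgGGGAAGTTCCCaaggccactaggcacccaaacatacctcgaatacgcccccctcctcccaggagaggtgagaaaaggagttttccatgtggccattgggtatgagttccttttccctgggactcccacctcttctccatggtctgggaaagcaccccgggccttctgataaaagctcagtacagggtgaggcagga

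Across single brain cells, the genes most like each member by Pearson correlation of log-normalized counts were found. These correlations share libraries and depth and are descriptions over 3915 brain and 7990 spleen cells. Cxcl10 was most like Rsad2 (r = 0.39 in brain and 0.22 in spleen), followed by Cmpk2, Ifit3, Isg15 and Ifit1, all interferon-induced genes. Ccl5 was most like Nkg7, a cytotoxic granule gene, with r = 0.60 in brain and 0.78 in spleen, with Gzmk, Hopx and Dusp2 among the next genes. Xcl1 was also most like Nkg7 (0.36 and 0.54), then Ctsw, Itga1, Dusp2 and Zfp683. Ccl4 was most like Ccl5 (0.33 and 0.18), with Nkg7, Gzmk and Eomes among the next genes. Ccl3 was like Ccl4 alone above the minimum of 0.2, with r = 0.47 in brain and 0.16 in spleen. The nearest genes of Ccl1 were Rgs16, a regulator of G protein signalling (0.29 and 0.06), the costimulatory receptor Tnfrsf9 (0.26 and 0.04) and Sema7a (0.20 and 0.08). No other gene reached 0.2 for Ccl1, although Nkg7 was found in 81.5% of Ccl1-positive brain cells against 43.8% of the rest.

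Cells with and without each member were then compared for genes of the helper and cytotoxic programmes. Rgs16 was found in 55.4% of Ccl1-positive brain cells against 13.2% of the rest, the inhibitory killer receptor gene Klrc1 in 53.8% against 13.4%, Ifng in 73.8% against 42.8% and Il17a in 6.92% against 9.30%. Penk, the proenkephalin gene, had a summed level of 258 against 12.7 CPM there, from 15.4% against 2.91% of cells. Eomes, a cytotoxic lineage factor, was found in 19.7% of Ccl4-positive cells against 2.22%, and Il17a in 2.18% against 9.66%. Cd8a was found in 11.8% of Ccl4-positive cells against 0.298%. The 259 cells with a UMI of Cd8a or Cd8b1 held 19.4% of Ccl4 and 12.5% of Ccl5 UMIs, and without them Ccl4 was found in 182 of 3656 cells (4.98%). Ifng was found in 81.7% of Ccl3-positive cells against 43.2%, and Eomes in 25% against 2.91%. Zbtb16, the NKT lineage factor, was found in 14.6% of Xcl1-positive cells against 1.37%, and Foxp3 in 2.05% against 7.53%. Rsad2 was found in 23.5% of Cxcl10-positive cells against 5.54%, and the 12 interferon response genes had a sum of 2859 against 1227 CPM. Cells with a Ccl1, Ccl3 or Cxcl10 UMI were somewhat deeper than the rest, with medians of 11255, 10309 and 11460.5 UMIs against 9784, 9833 and 9679, and the part of depth in these shares was not tested.

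Some pairs of members were found together in the same cells more often than others. Pairs of other genes are not given here, so the counts of pairs have nothing to be compared with. In brain, 10 of the 15 pairs were co-detected with intervals above those of the remaining cells, and 8 at equal depth. In spleen 6 of 15 pairs were, and 5 at equal depth. Ccl3 and Ccl4 had the highest correlation of the 15 brain pairs, the r of 0.47 given above. Ccl4 was found in 37 of 60 Ccl3-positive brain cells (61.7%, 48.2 to 73.9) against 4.98% of the rest, where 3.51 cells would share both if they were independent. Ccl5 was found in 168 of 229 Ccl4-positive cells (73.4%) against 27.4%, and in 41 of 60 Ccl3-positive cells (68.3%) against 29.5%. Read the other way, Ccl4 was found in only 14.2% of Ccl5-positive cells, so most Ccl5 cells lacked it at this depth.

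Xcl1 went with Ccl5 in both tissues. Ccl5 was found in 447 of 635 Xcl1-positive brain cells (70.4%) against 22.3%, and in 579 of 603 Xcl1-positive spleen cells (96.0%) against 8.68%. Ccl1 had other partners. Xcl1 was found in 31.5% of Ccl1-positive brain cells against 15.7%, and Ccl4 in 20.8% against 5.34%. Ccl5, by contrast, was in 26.9% of Ccl1-positive cells and 30.2% of the rest, with overlapping intervals. Cxcl10 was in 6.92% of Ccl1-positive and 6.67% of Ccl3-positive cells, both overlapping the shares in the rest (9.22% and 9.18%). In brain, 930 cells carried exactly 1 member, 546 carried 2, 155 carried 3, 21 carried 4 and 4 carried 5.

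Helper state was read from UMIs of 3 genes, Foxp3, Il17a and Ifng, within each library. In brain 1575 cells had Ifng without Il17a or Foxp3, 251 had Il17a alone, 97 had both cytokines, 260 had Foxp3 and 1732 had none. For 5 of the 6 genes the share of positive cells was higher in Ifng-only than in Il17a-only cells, with intervals apart. How many of all genes differ in this way is not given here, so the number of members has nothing to be compared with. Ccl5 was found in 55.2% (52.7 to 57.7) against 3.59% (1.65 to 6.70), and Xcl1 in 32.2% (29.9 to 34.6) against 0.797% (0.0966 to 2.85). Ccl4 was found in 10.98% against 0.398%, Ccl1 in 5.65% against 1.59%, and Ccl3 in 2.73% against 0 of 251, which allows up to 1.195%. The median depths of these groups were 10234 and 10912 UMIs. At equal depth, with the helper state also read again from the thinned counts, so that some cells changed state, the intervals were apart for 3 genes: Ccl4 (7.53% against 0), Ccl5 (46.6% against 4.70%) and Xcl1 (20.4% against 1.71%). In those groups Ccl1 was found in 2.83% against 0.855% and Ccl3 in 1.77% against 0.427%, with overlapping intervals.

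Cxcl10 was the gene that did not separate the cytokine states, at 11.3% in Ifng-only and 8.37% in Il17a-only cells, with overlapping intervals. It was found in 17.5% of cells with both cytokines and in 10.0% of Foxp3 cells. Ifng-only cells held 86.7% of the brain Ccl1 UMIs, 86.3% of Xcl1, 76.3% of Ccl5, 61.8% of Ccl4, 53.9% of Cxcl10 and 41.8% of Ccl3. The leading Ccl1 cell gave 2030 of their 3260 Ccl1 UMIs, and without it their Ccl1 level was 71.1 in place of 188 CPM. The cells with both cytokines held 54.0% of Ccl3 UMIs because the leading Ccl3 cell, which had 1 Il17a UMI, was among them. Foxp3 cells held Ccl5 in 19.2% and Ccl4 in 3.85%. In spleen, Ifng-only cells (589) held Ccl5 in 58.2%, Xcl1 in 28.9% and Ccl4 in 2.55% of cells, and 10 spleen cells had Il17a alone, too few for a comparison.

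The semi-invariant TRAV11-TRAJ18 receptor, which defines invariant NKT cells, marked the cells with the highest share of Xcl1. Xcl1 was found in 106 of 118 such brain cells (89.8%, 82.9 to 94.6) and in 14.1% (12.9 to 15.4) of 2984 other brain cells with a paired receptor. In spleen it was found in 498 of 648 (76.9%) and in 1.07% of 6084 others, and the invariant cells held 79.0% of all spleen Xcl1 UMIs. In brain they held 17.0%, so there most Xcl1 transcripts were in cells with other receptors. Ccl5 was found in 75.4% of invariant brain cells and 29.1% of the others, and in 91.5% and 8.28% in spleen. Ccl1, Ccl3 and Ccl4 were found in 2, 2 and 7 of the 118 invariant brain cells.

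**Figure D4:**
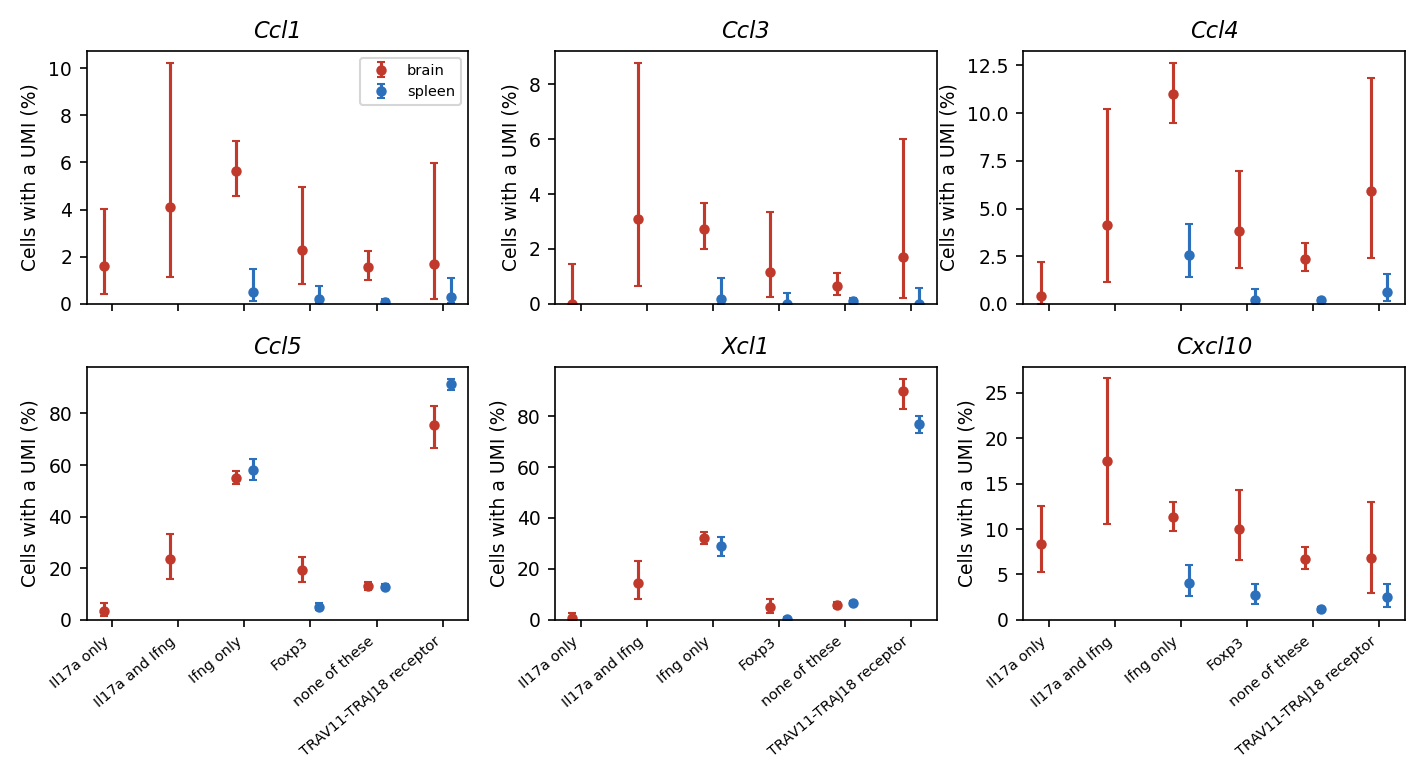
Share of cells with a UMI of each gene (vertical axis, percent, with exact binomial 95% intervals) by helper state and for cells with the TRAV11-TRAJ18 receptor, in brain (red) and spleen (blue); states under 20 cells are left out. Ccl5 and Xcl1 are high in Ifng-only and invariant cells of both tissues, and Cxcl10 varies less between brain states (6.70% to 17.5%).

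Each member was also compared between cells with and without a UMI of 14 chemokine receptor genes, at equal depth. In brain the share of members was higher with the receptor in 18 of the 84 combinations, with intervals apart, and lower in 12. The same counts for genes other than the members are not given here. Ccl4 was found in 15.4% of Cx3cr1-positive cells against 3.71% of Cx3cr1-negative cells. Cells with Ccr6, the receptor of Th17 cells, or with Ccr7, the lymph node homing receptor, held less of some ligands. With Ccr6 the shares of Ccl4, Ccl5 and Xcl1 were lower with intervals apart, and those of Ccl1, Ccl3 and Cxcl10 overlapped. With Ccr7 the shares of all members but Ccl1 were lower with intervals apart. Ccl4 was found in 0 of 204 Ccr6-positive cells, which allows up to 1.47%, Ccl5 in 1.96% against 27.0%, and Xcl1 in 0.490% against 11.2%. With Ccr7, Ccl5 was found in 3.44% against 29.5%.

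Several receptors marked cells with higher shares of more than 1 ligand. In brain this held with intervals apart for Ccl1, Ccl4, Ccl5 and Xcl1 with Cxcr6, for Ccl5 and Xcl1 with Cxcr3, and for Ccl1, Xcl1 and Cxcl10 with Ccrl2. Ccl4 was found in 5.94% of Cxcr6-positive cells against 2.41%, and Ccl5 in 32.9% against 19.4%. Xcl1 was found in 15.9% of Cxcr6-positive against 6.14% of Cxcr6-negative brain cells, and in 17.4% against 6.73% for Cxcr3. Ccl1 was found in 2.47% against 1.11% for Cxcr6 and in 6.02% against 1.53% for the atypical receptor Ccrl2. For its own receptor, Ccr8, the shares were 2.72% and 1.56% with overlapping intervals at equal depth. At deposited depth Ccr8 was found in 61.5% of Ccl1-positive brain cells and 26.3% of the rest. Cxcl10 was found in 10.2% of Ccrl2-positive cells against 4.94%. In spleen, Ccl5 was found in 59.0% of Cxcr6-positive cells against 4.59%, and in 77.3% of Ccr9-positive cells against 11.8%. Spleen Xcl1 was found in 50.7% of Ccr9-positive cells against 4.15%. Spleen Cxcl10 went with Cxcr5, the follicle homing receptor, at 2.22% against 0.848%.

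The 6 members made up 97.9% of the UMIs of all ligand genes in brain and 96.2% in spleen. Of 41 ligand genes, 12 had no UMI in either tissue and 7 reached 10 CPM: the 6 members and Ccl25, which stood at 13.8 CPM in brain and 18.8 in spleen. The median log2 ratio of the measured ligands was 1.97, against -0.09 over all genes measured. As 6 of these 7 ligands are members chosen with this contrast known, that median restates the choice. Over all 8639 genes measured, the shares called were 9.82% higher in brain and 8.73% higher in spleen. Of 23 receptor genes 13 were measured. Of these receptors, 8 were called higher in brain, 3 in spleen and 2 neither, with a median log2 ratio of 0.77. Among those higher in brain, Ccr8, the receptor for Ccl1, had a ratio of 11.01, Ccrl2 of 3.96, Cx3cr1 of 2.15, Cxcr4 of 2.04, Cxcr6 of 1.97, Ccr2 of 1.71 and Ccr6 of 1.61. Ccr7 (0.368), Cxcr5 (0.212) and Ccr9 (0.201) were higher in spleen. Cxcr3, the receptor of Cxcl10, was measured at 195 and 172 CPM, a ratio of 1.14, and Ccr4 at 29.9 and 30.3. Xcr1, the receptor of Xcl1, had 7 UMIs in brain and 10 in spleen.

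Receptor sequencing placed the cells into clonotypes by the V genes and CDR3 nucleotides of both chains, 2117 in brain and 6241 in spleen. For 4 of the 6 genes, 1 clonotype held over 10% of the brain UMIs found in cells with a receptor. These are shares of molecules. Counted by positive cells in place of UMIs, only Ccl3 had a clonotype above that level, at 12.5%. The leading Ccl1 cell was a clonotype of 1 cell, TRAV6-1 TRAJ31 with TRBV12-2 or TRBV13-2 and TRBJ2-1, and held 61.6% of the 3295 Ccl1 UMIs with a receptor. A clonotype of 6 brain cells with TRAV12-2 TRAJ23 and TRBV13-3 TRBJ1-2 came second, with 442 Ccl1 UMIs (13.4%), and led Xcl1 with 426 (12.8%). Its cells were unequal. Ccl1 was at 310, 0, 0, 0, 130 and 2 UMIs, and Xcl1 at 296, 0, 0, 0, 129 and 1 in the same cells. The granule gene Nkg7 was at 97, 0, 0, 0, 51 and 12, so it was found in the 3 cells that held the chemokines. Among the cells without either ligand, 1 held 49 Il17a, 69 Penk and 39 Nrgn UMIs. The 3 spleen cells of this clonotype held 0 UMIs of Ccl1 and Xcl1.

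A clonotype of 3 brain cells and 0 spleen cells, TRAV6N-6 TRAJ7 with TRBV19 TRBJ2-1, led Ccl3 with 111 UMIs (40.2%) and Ccl4 with 202 (13.3%). All 3 cells were in the Rgs16 and Klrc1 cluster and held all 3 ligands: Ccl3 at 4, 97 and 10, Ccl4 at 5, 99 and 98, and Ccl5 at 260, 49 and 210 UMIs. Ccl5 was led in brain by the largest clonotype, 66 cells with TRAV13N-1 TRAJ21 and TRBV13-3 TRBJ2-5, of which 62 were in the Th1-like cluster. Ccl5 was found in 60 of the 66 cells with 1009 UMIs, and Ccl1 and Ccl3 in 0. These 1009 UMIs are 4.94% of the 20420 Ccl5 UMIs in brain cells with a receptor. In spleen Ccl5 was led by a clonotype found in both tissues, TRAV7-5 TRAJ32 with TRBV26 TRBJ1-5. That clonotype held Ccl5 in 42 of 60 spleen cells, with 1696 UMIs, and in 28 of 57 brain cells, with 786 UMIs. The 1696 UMIs are 6.59% of the 25735 in spleen cells with a receptor.

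The CDR3 sequences below identify the clonotypes of more than 1 cell that led a gene in brain, the clonotype that led Ccl5 in spleen, and the one with the highest share of Ccl1-positive cells among brain clonotypes of at least 10 cells (5′ to 3′, as deposited, with no part marked):
TRAV12-2 TRAJ23: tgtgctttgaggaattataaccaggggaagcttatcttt
TRBV13-3 TRBJ1-2: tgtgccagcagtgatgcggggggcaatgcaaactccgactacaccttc
TRAV6N-6 TRAJ7: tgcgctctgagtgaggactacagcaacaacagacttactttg
TRBV19 TRBJ2-1: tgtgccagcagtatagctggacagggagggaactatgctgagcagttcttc
TRAV13N-1 TRAJ21: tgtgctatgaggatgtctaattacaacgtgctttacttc
TRBV13-3 TRBJ2-5: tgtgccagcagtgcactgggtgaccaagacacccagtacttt
TRAV7-5 TRAJ32: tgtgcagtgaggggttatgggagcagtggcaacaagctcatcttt
TRBV26 TRBJ1-5: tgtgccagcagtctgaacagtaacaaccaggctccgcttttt
TRAV8D-1 TRAJ37: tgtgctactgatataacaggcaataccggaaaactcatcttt
TRBV1 TRBJ1-1: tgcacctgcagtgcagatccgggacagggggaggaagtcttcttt

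Larger clonotypes differed widely in which ligand they made. Over the 18 brain clonotypes of at least 10 cells (428 cells), the share of Ccl5-positive cells ran from 0 to 100% with a median of 33.3%. For Ccl1 it ran from 0 to 36.0% (median 2.63%), for Ccl3 from 0 to 31.6% (median 0), for Ccl4 from 0 to 42.1% (median 8.55%), for Xcl1 from 0 to 41.7% (median 6.70%) and for Cxcl10 from 0 to 36.4% (median 7.42%). Ccl1 was highest in a clonotype of 25 cells, TRAV8D-1 TRAJ37 with TRBV1 TRBJ1-1, where 9 cells had it and 0 had Ccl5 or Xcl1. In a clonotype of 47 cells, TRAV7D-2 TRAJ23 with TRBV20 TRBJ2-5, Ccl1 was also in 9 cells and Ccl5 in 8, while 30 cells had Ifng and 19 had Il17a. Ccl3 and Ccl4 were highest in a clonotype of 19 cells, TRAV12N-2 TRAJ7 with TRBV20 TRBJ2-5, in 6 and 8 cells. All 19 were in the Rgs16 and Klrc1 cluster. A clonotype of 12 cells, TRAV4-4-DV10 TRAJ44 with TRBV31 TRBJ1-3, had Ccl5 in all 12 and Ccl1, Ccl3 and Ccl4 in 0.

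**Figure D5:**
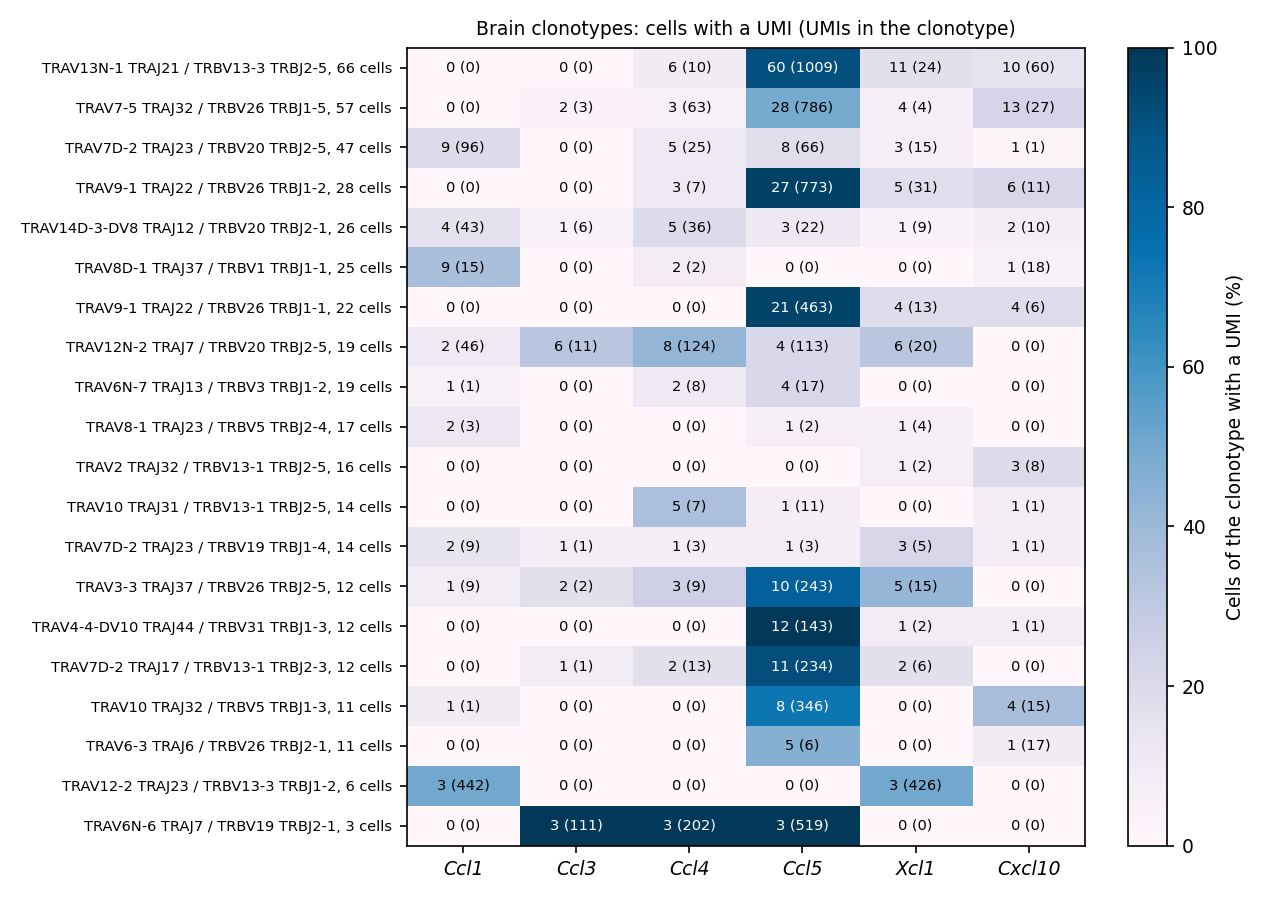
Brain clonotypes of at least 10 cells, with the clonotypes of 6 and 3 cells that led Ccl1, Xcl1, Ccl3 or Ccl4 below; each field gives the number of cells with a UMI and, in parentheses, the UMIs, and its colour the percent of cells with a UMI. Ccl5 is found in 60 of 66 cells of the largest clonotype, where Ccl1 and Ccl3 are in 0.

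In brain, 3 of the 6 genes were found in a larger share of cells in the larger clonotypes. The share of all genes that differ in this way is not given here, so the count of members stands alone. In clonotypes of at least 5 cells (717 cells), Ccl5 was found in 41.7% against 24.7% in clonotypes of 1 cell (1828 cells), Ccl4 in 9.07% against 3.23% and Ccl1 in 5.86% against 1.42%, all with intervals apart. The median depths were 10036 and 10239 UMIs. The 717 cells came from 64 clonotypes, and the largest of these gave 60 of their 299 Ccl5-positive cells. Xcl1 was found in 13.8% against 17.2%, Cxcl10 in 9.90% against 7.77% and Ccl3 in 2.37% against 1.15%, with overlapping intervals. In spleen, cells of clonotypes of at least 5 cells (213) held Ccl5 in 36.6% against 15.3% in clonotypes of 1 cell. They held Xcl1 in 0, which allows up to 1.41%, against 9.19%. Of the 78 Ccl5-positive cells among the 213, 42 were in 1 clonotype of 60 cells. By receptor, the 648 invariant spleen cells held Ccl5 in 91.5% and Xcl1 in 76.9%. Spleen cells with another paired receptor held them in 8.28% and 1.07%, and this Xcl1 share lies below the limit of 1.41%. The part of the invariant receptor in these differences was not tested.

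A comparison within the same receptors came from clonotypes found in 3 or more brain cells and 3 or more spleen cells. There were 17, with 169 brain and 149 spleen cells. The CPM of Ccl5 was higher in brain in 5 of these clonotypes and higher in spleen in 9. Ccl5 was found in 47.9% of their brain and 51.7% of their spleen cells, with summed levels of 1199 and 2261 CPM. The TRAV7-5 TRAJ32 clonotype gave 57 of the brain and 60 of the spleen cells, and 42 of the 77 Ccl5-positive spleen cells. Xcl1 was higher in brain in 8, higher in spleen in 0 and without a UMI in 9. It was found in 10.1% of brain cells and 0 of 149 spleen cells, which allows up to 2.01%. All spleen cells with a paired receptor other than the invariant one held Xcl1 in 1.07%, below that limit. The TRAV12-2 TRAJ23 clonotype of 6 brain cells held 426 of the 479 Xcl1 and 442 of the 449 Ccl1 UMIs in these brain cells. Cxcl10 was higher in brain in 6 and in spleen in 3, at 14.8% and 2.01% of cells. Ccl1 was higher in brain in 3 and in spleen in 0, Ccl4 in 2 and 1, and each had no UMI in 14 of the 17. Ccl3 had 3 UMIs in brain and 2 in spleen, in 1.18% and 1.34% of cells, and none in 16 of the 17. Clonotypes of 1 pool are not replicates of a tissue, and no test was made.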

How the data were processed

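Single-cell 5′ RNA tags and T cell receptor contigs were measured in 1 RNA and 1 receptor library per tissue. The authors deposited raw UMI counts per gene and barcode, made with Cell Ranger 9.0.0 per the file headers; other upstream settings were not given in the sources used here. Genome builds GRCm39, GRCm38, mm39 and mm10 are named without a role in the submitters' processing notes, so gene coordinates were not used, apart from RefSeq promoter windows. The deposited receptor tables give contigs with read and UMI counts. Unmapped columns of values numbered 0.

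A barcode was kept if it had 500 or more genes, 1000 or more UMIs and no more than 10% of UMIs from mitochondrial genes. Those showing over 1 TRB or over 2 TRA productive chains were removed as doublets. Barcodes with at least 3 of 5 B cell markers or at least 4 of 12 myeloid and microglia markers were left out, a rule set after the data were seen. No other doublet caller was run. Levels (CPM) are UMIs summed over all cells kept and scaled to an equal total. Ratios have exact conditional binomial intervals and shares exact Clopper-Pearson intervals at 95%. For a count of 0, the limit is 3 counts of the total. Reads were already collapsed to UMIs, and cells of 1 library are not independent samples, so intervals cover counting error only. Cells were thinned to 3000 UMIs where depths were compared. Clusters were made per library with scanpy 1.11.5 (2000 variable genes without chemokine ligands, 30 components, 15 neighbours, Leiden resolution 0.8) and named only by a marker list, with naming thresholds set with earlier results known. The step that calls genes was tested on simulated counts of 8386 genes. It called 50 of 50 genes changed by 2-fold and 50 of 50 changed by 3-fold in each direction, and 0 of 8186 unchanged genes. These counts describe the simulation only. With 1 RNA library per tissue the variation between libraries cannot be measured, so how often a real gene was called wrongly is unknown. TMM factors of edgeR 4.0.16 and size factors of DESeq2 1.42.0 served as other scalings. Named genes are the 6 members, the measured genes of the ligand, receptor and state lists, and up to 5 genes most like each member with r of at least 0.2 among genes found in at least 2% of brain cells; genes named in producing cells, leading cells and clusters beyond these were picked with their values in view. Results for 1 gene of the lists are not reported here. The members and lists were chosen with earlier results of these data known.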

Additional observations from a re-analysis of the deposited data

Results flagged for a closer look

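Chemokine transcripts were also present in barcodes that no comparison used. The 45 myeloid-like brain barcodes left out held 209 UMIs of Ccl5, 86 of Ccl4, 74 of Ccl1, 55 of Ccl3, 22 of Xcl1 and 11 of Cxcl10. Of these barcodes 35 carried a productive TRB chain and 43 a UMI of a Cd3 gene. Ccl4 was found in 11 of the 45 (24.4%, 12.9 to 39.5) and Ccl5 in 16 (35.6%, 21.9 to 51.2). The 74 Ccl1 UMIs came from 1 barcode. The 4 B-like brain barcodes held 215 UMIs of Ccl5, 33 of Ccl4 and 14 of Ccl3, all in 1 barcode for each gene, and 3 of the 4 carried a TRB chain. The 163 B-like spleen barcodes held 82 UMIs of Ccl5 in 8 barcodes and 16 of Xcl1 in 4, and 16 of the 163 carried a TRB chain. Each of these sums exceeded the 3 counts that a count of 0 allows. The part of cell doublets in them was not tested.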

How the results depend on the processing

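As reported, 5 members had a brain to spleen ratio of at least 1.5 with an interval excluding 1. The floor of 10 CPM was not applied in the alternatives. The number stayed at 5 under both other scalings, over all barcodes, with the stricter filter, and without the leading clonotype, cell or Cd8 cells. It was also 5 with the B-like and myeloid-like barcodes, and as a mean of per-cell CPM, where only the ratio was used. Without its leading cell, brain Ccl3 stood at 7.44 CPM, below that floor. Without the top 1% of cells the number was 6. That setting left no spleen UMI of Ccl1, Ccl3 and Ccl4, so no ratio was made for them. The ratio ran from 29.9 to 365 for Ccl1, 39.8 to 135 for Ccl3, 42.7 to 53.3 for Ccl4, 1.17 to 1.55 for Ccl5, 2.41 to 2.82 for Xcl1 and 3.70 to 27.0 for Cxcl10. Of the summary counts, 35 of 38 alternatives stayed within 1.5 times the reported count. The 3 that did not were the number of members more frequent in Ifng-only than Il17a-only brain cells (3 with both members and helper state read at equal depth, 5 as deposited), the number of member and receptor combinations above background (35 as deposited, 18 at equal depth), and the number of members with a leading clonotype over 10% (1 by positive cells, 4 by UMIs); the cause was not tested. The co-detected brain pairs numbered 8 to 10 and the spleen pairs 4 to 6. Members with most UMIs in 1 brain cluster numbered 3 to 4 over the other clusterings. Of the values of single members, 118 moved beyond their counting interval and 269 did not. A reversal was looked for only among the brain to spleen ratios, of which 0 reversed. No paired analysis was possible because each tissue has 1 RNA library and carries no replicate number. Depth limits the spleen values of Ccl1 and Ccl3, which rest on 39 and 8 UMIs.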
